A study of Mus musculus with 6 samples.

Results

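Metalloproteinases and their inhibitors were compared between 2 mouse endothelial cell lines, UV2 and bEnd.3. The genes were taken by symbol alone: every Mmp, Adam, Adamts, Adamtsl and Timp1 to Timp4 gene of the deposited table. This gave 84 of 24411 genes, made up of 23 MMP genes, 33 ADAM genes, 19 ADAMTS genes, 5 ADAMTS-like (ADAMTSL) genes and 4 TIMP genes. UV2, also written UV♀2 by the submitters, has the labelled strain (BALB/c x C57BL/6)F1, and bEnd.3 is a brain endothelial line from BALB/c mice that was immortalised with the polyoma virus middle T antigen. Both lines were grown to confluence on 10-cm dishes, washed, held without serum for 3 days and detached with trypsin-EDTA, and poly(A) RNA was sequenced from 3 libraries of each line. Each group is 1 cell line, so the line, its strain and the way it was established cannot be told apart as sources of a difference. The labels do not tell whether separate cultures stand behind the 3 libraries of a line, so p-values here speak only of the spread from library to library, which may be technical.

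All 4 families act on or around the cell surface and the extracellular matrix. MMPs and ADAMTS enzymes are zinc-dependent proteases that cut matrix proteins such as collagens and proteoglycans, most of them after secretion and some while anchored in the membrane, and most are made as inactive proenzymes. ADAMs are membrane-spanning relatives, several of which release the outer part of other membrane proteins, a step called shedding, while ADAMTS-like proteins have the accessory domains of ADAMTS enzymes without the protease. TIMPs are small secreted proteins that block the active site of these proteases, and endothelial cells use the whole system when they sprout, remodel their basement membrane and shed adhesion molecules.

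The libraries held 21306441 to 28748128 expected counts, and the 84 genes took 0.772% to 0.90% of the counts in UV2 and 0.605% to 0.668% in bEnd.3. The summed level of 8 endothelial markers (Pecam1, Cdh5, Kdr, Tek, Tie1, Emcn, Erg and Esam) was 10890 to 12470 CPM (counts scaled to each library's depth) in UV2 and 10660 to 11110 CPM in bEnd.3, so both lines carried the labelled cell type's markers. Of those 8, Tie1 was called higher and Emcn and Erg lower in UV2. Markers of other cell types were low, except the leukocyte marker Cd68. The 7 mural markers summed to 3.66 to 6.17 CPM in UV2 and 0.529 to 0.849 CPM in bEnd.3. Pdgfrb was called higher in UV2 (302 counts in UV2 and 21 in bEnd.3), and Acta2 had 39 counts in UV2 and 0 in bEnd.3. Myh11 (4 in UV2, 16 in bEnd.3), Cspg4 (1 in UV2, 7 in bEnd.3) and Notch3 (1 in UV2, 11 in bEnd.3) went the other way. The 7 epithelial markers summed to 0.380 to 0.964 CPM in UV2 and 0.0340 to 0.0897 CPM in bEnd.3, with Epcam, Krt14 and Krt5 at 0 counts. Further, 7 fibroblast markers summed to 27.1 to 67.2 CPM in UV2 and 3.45 to 7.16 CPM in bEnd.3, with Col3a1 and Pdgfra called higher in UV2, Postn at 2 counts in UV2 and 130 in bEnd.3, and Col1a1, Col1a2, Lum and Dcn at no more than 16 counts in a line. The 7 leukocyte markers summed to 253 to 343 CPM in UV2 and 89.9 to 159 CPM in bEnd.3, nearly all of it Cd68, which was called higher in UV2. Csf1r was not called, with 39 counts in UV2 and 36 in bEnd.3. Itgam had 19 counts in UV2 and 3 in bEnd.3, while Cd79a had 4 in UV2 and 19 in bEnd.3. Ptprc had 0 counts in UV2 and 1 count in bEnd.3, and Adgre1 and Cd3e were at 0. The part of these markers in the results that follow was not tested. In bulk libraries such as these, fewer cells making a transcript and less of it per cell cannot be told apart.

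Of the 84 genes, 16 had 0 counts in every library after rounding, 25 were detected but too low to test, and 43 were tested with edgeR's quasi-likelihood test as UV2 over bEnd.3. A gene was called higher or lower at a Benjamini-Hochberg adjusted p under 0.05 over all 12720 tested genes. Of the 43 tested genes, 21 were higher and 11 lower in UV2 and 11 were not called, in a comparison in which 33.9% of all tested genes were called higher and 33.3% lower (67.1% in all). Past a 2-fold change (edgeR's glmTreat, adjusted p under 0.05) there were 12 higher and 6 lower genes, where the shares over all tested genes were 10.6% and 8.81%, 19.4% together. The share called at any size, 74.4%, was therefore close to that over all genes, while the share beyond 2-fold was 41.9%. The values of the UV2 and bEnd.3 libraries did not overlap for 33 of the 43 genes (76.7%), against 73.2% of all tested genes. The median size of the log2 fold change, whatever its sign, was 1.495 (log2) over the 43 genes and 0.50 over all tested genes. A low gene is tested only if enough libraries reach about 0.419 CPM, and 10 of the 43 reached that level in all libraries of just 1 line. The 7 in UV2 were Mmp13, Mmp9, Adam28, Adam3, Adam32, Adamts18 and Adamtsl3, and the 3 in bEnd.3 were Mmp17, Adam11 and Adamtsl1. Such genes entered the test through 1 line, and each was called with more in that line. The counts of called genes are therefore a description.

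**Figure D1:**
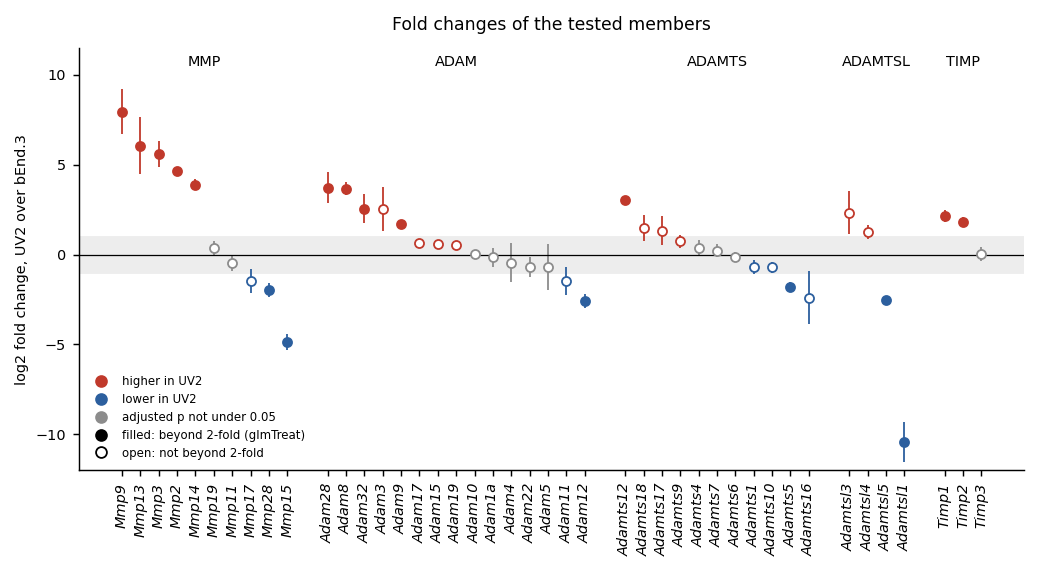
Log2 fold change of UV2 over bEnd.3 (vertical axis) for the 43 tested genes, grouped by family along the horizontal axis, with bars for the 95% confidence interval, red for higher, blue for lower, grey for not called, and filled symbols for changes beyond 2-fold. The MMP genes spread most widely, between -4.86 for Mmp15 and 6.07 for Mmp13 among those with more than 3 counts in each line; the fitted values of Mmp9 and Adamtsl1 rest on 1 or 2 counts in a line and are not bounds.

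Among the 23 MMP genes, 10 were tested, of which 5 were higher, 3 were lower and 2 were not called, with a median log2 fold change of 2.12. Beyond 2-fold there were 5 higher and 2 lower MMP genes. The share called was 80%, against 67.1% over all tested genes, and the share beyond 2-fold was 70%, against 19.4%. Mmp13 and Mmp9 entered the test through UV2 alone and Mmp17 through bEnd.3 alone, so these shares are a description. Mmp14, Mmp2, Mmp3, Mmp13 and Mmp9 were far higher in UV2, while Mmp15, Mmp28 and Mmp17 were lower. UV2 and bEnd.3 thus each had a different membrane-type MMP as their most abundant one.

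Mmp14 encodes the membrane-type collagenase MT1-MMP, which also activates the proenzyme of MMP2 at the cell surface. It lies on chr14:54431598-54442456 (mm10, plus strand). Its level was 651, 909 and 869 CPM in the 3 UV2 libraries, against 62.2, 52.9 and 48.8 CPM in the bEnd.3 libraries. Every UV2 library was more than 10 times above every bEnd.3 library. The means were 810 ± 139 CPM in UV2 and 54.6 ± 6.86 CPM in bEnd.3 (SD, n = 3 each), 14.8-fold apart (log2 fold change 3.89, SE 0.16, edgeR adjusted p = 8.15e-07). Mmp15, which encodes the related membrane-type enzyme MT2-MMP on chr8:95352296-95374293, went the other way. It had 3.46, 6.40 and 4.36 CPM in UV2, against 162, 128 and 120 CPM in bEnd.3. The libraries of the lines were widely separated, and the gene was 29.02-fold lower in UV2 (log2 fold change -4.86, SE 0.22, edgeR adjusted p = 1.39e-06). Scaled to exon length, Mmp14 averaged 193.5 CPM per kb in UV2 and 13.1 in bEnd.3, and Mmp15 averaged 0.923 CPM per kb in UV2 and 26.6 in bEnd.3. The order of these levels was therefore opposite in the lines, with Mmp14 above Mmp15 in each UV2 library and Mmp15 above Mmp14 in each bEnd.3 library. Mmp17, a membrane-type enzyme held by a glycolipid anchor (chr5:129584151-129611099), was low in both lines. It had 0.592, 0.388 and 0.424 CPM in UV2, against 1.08, 1.02 and 1.80 CPM in bEnd.3, without overlap, and was 2.78-fold lower in UV2 (log2 fold change -1.47, SE 0.34, edgeR adjusted p = 0.00569).

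Mmp2 and Mmp9 encode the gelatinases, which degrade denatured collagen and basement membrane collagen. Mmp2 (chr8:92827290-92853421) had 105, 110 and 119 CPM in UV2, against 4.13, 4.97 and 4.04 CPM in bEnd.3. The spread within each line was small beside the gap between them, with means of 111 ± 7.12 CPM in UV2 and 4.38 ± 0.512 CPM in bEnd.3 (SD, n = 3 each). The gene was 25.4-fold higher in UV2 (SE of the log2 fold change 0.11, edgeR adjusted p = 7.56e-08). Mmp9 (chr2:164940326-164955850) was close to absent from bEnd.3. It had 10.3, 8.63 and 4.16 CPM in UV2, while bEnd.3 had 0, 1 and 1 counts. The sums of 530 counts in UV2 and 2 counts in bEnd.3 gave a ratio of 288 after scaling to depth, with an exact 95% counting interval of 79.3 to 2384, and the edgeR adjusted p was 2.40e-05. Such intervals cover counting error only.

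Mmp28 encodes epilysin, a secreted MMP of epithelia and other tissues (chr11:83440768-83463040). It had 3.21, 2.71 and 3.01 CPM in UV2, against 9.28, 10.6 and 14.7 CPM in bEnd.3, so the libraries did not overlap. It was 3.87-fold lower in UV2 (log2 fold change -1.95, SE 0.20, edgeR adjusted p = 8.64e-05). An exon of 1700020L24Rik lies on the opposite strand of Mmp28, and that gene's counts were 33, 25 and 27 in UV2 and 70, 124 and 197 in bEnd.3. The strand setting of the counting is not given in the sources used here, so the 2 genes' reads may be mixed. Mmp11, which encodes stromelysin-3, was not called at 6.49 CPM in UV2 and 9.03 CPM in bEnd.3 (log2 fold change -0.48, SE 0.23, edgeR adjusted p = 0.0943), but without UV2 replicate 1 it was called lower (-0.71, adjusted p = 0.0243). Mmp19 averaged 4.37 CPM in UV2 and 3.41 CPM in bEnd.3 and was not called either (log2 fold change 0.35, SE 0.21, edgeR adjusted p = 0.180), and an exon of Tmem198b overlaps it.

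**Figure D2:**
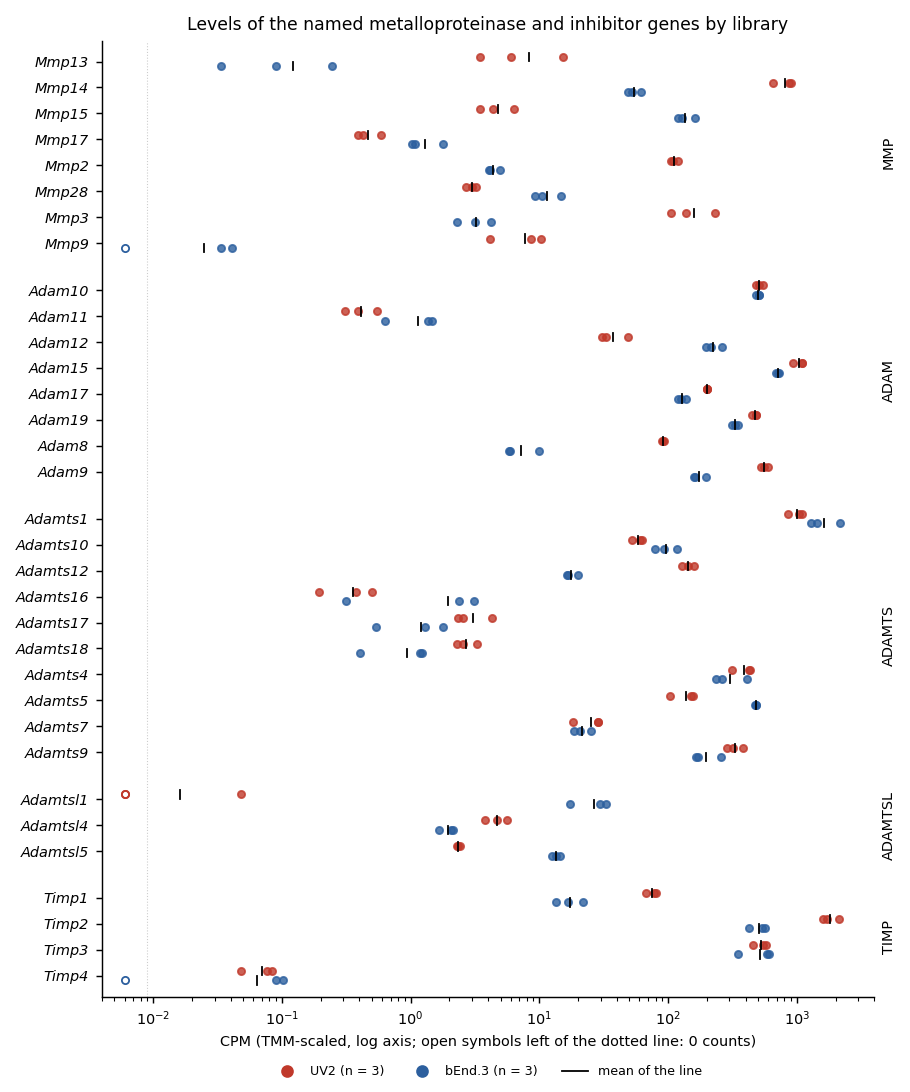
Levels in CPM (log axis) of the 33 named genes in each library, with 3 UV2 points (red) above 3 bEnd.3 points (blue) for each gene, a black tick for each line's mean, and open symbols left of the dotted line for libraries with 0 counts. The UV2 and bEnd.3 points of Mmp14, Mmp15, Mmp2, Mmp3, Adam8 and Adamts12 lie far apart, while those of Adam10 and Timp3 overlap.

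Mmp3 and Mmp13 belong to a run of 10 MMP genes that lie side by side in 427 kb of chromosome 9 (chr9:7272514-7699585, mm10). The promoters of several genes of this run are known to bind AP-1, a dimer of Fos and Jun proteins, close to a TATA box, and the run also holds genes that were almost silent in both lines. The 250 bases before the start of 5 genes are therefore shown (plus strand, RefSeq on GRCm38.p6), 3 from the run (Mmp3, Mmp13 and Mmp1a) and the pair of membrane-type genes that moved in opposite directions. Capitals mark the AP-1 letters TGANTCA, which read the same on both strands, and the letters TATAAA.
Mmp3: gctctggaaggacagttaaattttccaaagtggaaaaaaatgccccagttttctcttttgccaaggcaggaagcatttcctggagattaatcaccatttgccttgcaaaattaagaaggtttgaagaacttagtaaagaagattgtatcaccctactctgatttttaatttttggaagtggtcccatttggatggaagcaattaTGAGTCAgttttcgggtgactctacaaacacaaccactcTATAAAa
Mmp13: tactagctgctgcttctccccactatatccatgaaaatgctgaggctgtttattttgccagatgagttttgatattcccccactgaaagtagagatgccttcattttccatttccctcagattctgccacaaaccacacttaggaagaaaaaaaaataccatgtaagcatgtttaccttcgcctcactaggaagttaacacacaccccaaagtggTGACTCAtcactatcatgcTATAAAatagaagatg
Mmp1a: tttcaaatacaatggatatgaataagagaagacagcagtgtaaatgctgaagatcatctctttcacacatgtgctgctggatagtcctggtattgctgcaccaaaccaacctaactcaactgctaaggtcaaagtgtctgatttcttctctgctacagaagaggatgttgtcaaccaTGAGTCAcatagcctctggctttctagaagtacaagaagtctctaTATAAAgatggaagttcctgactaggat
Mmp14: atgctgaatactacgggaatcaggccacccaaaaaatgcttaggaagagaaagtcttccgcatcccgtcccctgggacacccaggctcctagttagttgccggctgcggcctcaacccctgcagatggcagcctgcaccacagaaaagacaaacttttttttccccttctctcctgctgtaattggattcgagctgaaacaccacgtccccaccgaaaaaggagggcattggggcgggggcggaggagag
Mmp15: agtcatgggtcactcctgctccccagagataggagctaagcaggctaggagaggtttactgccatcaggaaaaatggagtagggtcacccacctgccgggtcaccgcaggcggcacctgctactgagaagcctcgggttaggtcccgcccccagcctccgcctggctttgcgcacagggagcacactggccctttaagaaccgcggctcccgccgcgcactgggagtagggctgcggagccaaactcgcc
These windows are chr9:7445572-7445821 for Mmp3, chr9:7272264-7272513 for Mmp13, chr9:7463891-7464140 for Mmp1a, chr14:54431348-54431597 for Mmp14 and chr8:95352046-95352295 for Mmp15. The AP-1 letters began 46 bases before the start in Mmp3, 35 in Mmp13 and 73 in Mmp1a, and TATAAA began 7, 16 and 28 bases before it. Neither set of letters was in the Mmp14 or Mmp15 window. Both strands were searched and no AP-1 match overlapped a TATAAA match in the windows shown. RefSeq windows were matched for 53 of the 84 genes. AP-1 letters were in a window of 8 of the 10 genes of the run and of 4 of the 43 other matched genes. Mmp12 and Mmp7 have more than 1 window and held the letters in only 1 of them, for Mmp12 not the one at the gene's start. Counted by window, the letters were in 12 of the 58 windows of the matched genes and in 6.75% of 32851 windows of this length over all genes. TATAAA was in a window of 7 of the 10 genes of the run. Counted by window, it was in 13 of the 58 windows of the matched genes and in 12.4% of all windows. Letters related to those of AP-1, TGACGTCA, the cyclic AMP response element, were in none of the matched genes' windows and in 1.55% of all. The windows of the run had a median GC content of 40.2%, against 52.4% over all windows. A letter match is a description and not evidence of binding. Both sets of letters are in the Mmp1a window, and Mmp1a stayed near the detection limit in both lines. Whether the letters bear on the level of any gene was not tested.

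Within this run the difference between the lines was large for some genes and not measurable for others. Mmp3 encodes stromelysin-1, which cuts many matrix proteins and activates other MMPs (chr9:7445822-7455975). It had 105, 137 and 231 CPM in UV2, against 3.18, 4.23 and 2.31 CPM in bEnd.3. All UV2 libraries were well above all bEnd.3 libraries, although the UV2 values differed more than 2-fold among themselves. The means were 158 ± 65.5 CPM in UV2 and 3.24 ± 0.964 CPM in bEnd.3 (SD, n = 3 each), 49.1-fold apart (log2 fold change 5.62, SE 0.37, edgeR adjusted p = 8.19e-06). Mmp13 encodes collagenase-3, an enzyme that cuts fibrillar collagen (chr9:7272514-7283333). It had 15.3, 6.06 and 3.47 CPM in UV2, against 0.0897, 0.244 and 0.0339 CPM in bEnd.3. There was no overlap, and the fitted difference was 67.0-fold (log2 fold change 6.07, SE 0.82, edgeR adjusted p = 0.000349). It rested on 2, 6 and 1 counts in bEnd.3, and the log2 fold change was 5.27 without UV2 replicate 1 and 7.04 without bEnd.3 replicate 2, both with adjusted p under 0.05.

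The other 8 genes of the run were too low to test. Mmp10, which encodes stromelysin-2, had 35.9 expected counts in UV2, spread over the 3 libraries, and 1.06 in bEnd.3, a ratio of 38.0 with an exact 95% counting interval of 6.39 to 1545. Mmp3, Mmp10, Mmp1a and Mmp1b are close relatives, and expected counts divide reads that fit several of them, so the low members of this group are uncertain. Mmp1a had 22 counts in UV2 and 19.8 in bEnd.3, Mmp1b 9 in UV2 and 5.2 in bEnd.3, and Mmp12, the macrophage elastase, 22 in UV2 and 6 in bEnd.3. Mmp7, which encodes matrilysin, had 0, 1 and 10 counts in the UV2 libraries and 0 in bEnd.3, so nearly all of its counts were in UV2 replicate 3 and no fold is given. Mmp27 had 20 counts in UV2 and 53 in bEnd.3, Mmp8, the neutrophil collagenase, 1 in UV2 and 0 in bEnd.3, and Mmp20, the tooth enamel enzyme, 0 in both. The 6 tested genes nearest to the run, 3 on each side, had log2 fold changes between -0.85 for Pdgfd and 0.51 for Tmem123. Both were called, with 12.6 ± 1.43 CPM in UV2 and 22.8 ± 1.43 CPM in bEnd.3 for Pdgfd (edgeR adjusted p = 0.000312), and 164 ± 21.6 CPM in UV2 and 115 ± 12.8 CPM in bEnd.3 for Tmem123 (edgeR adjusted p = 0.0055; SD, n = 3 each). The neighbours therefore differed by much less than Mmp3 or Mmp13. The median log2 fold change over the 675 tested genes of chromosome 9 was -0.28.

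**Figure D3:**
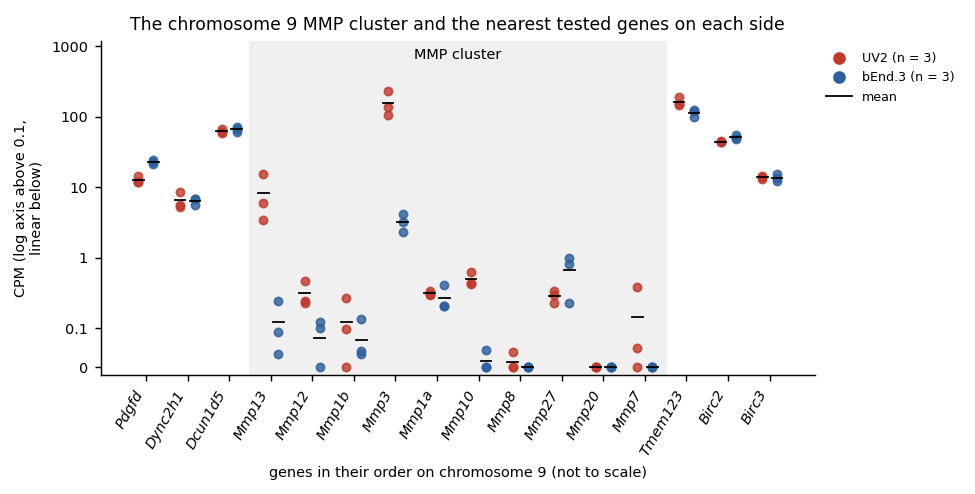
CPM (log axis above 0.1, linear below) in the 3 UV2 (red) and 3 bEnd.3 (blue) libraries for the 10 MMP genes of the chromosome 9 run (shaded) and the 3 nearest tested genes on each side, in chromosomal order and not to scale, with black bars for means. Mmp3 and Mmp13 stand apart between the lines, the other 8 MMP genes are under 1 CPM in every library, and the flanking genes differ by less than 2-fold between the means of the lines.

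The MMP genes outside the run that were too low to test were Mmp23 with 6 counts in UV2 and 45 in bEnd.3, Mmp24 with 20.2 in UV2 and 16.7 in bEnd.3, and Mmp16, Mmp21 and Mmp25 with 0 in UV2 and 1 each in bEnd.3. Summed per kb of exon, the MMP family came to 264, 342 and 383 CPM per kb in UV2, against 57.7, 50.3 and 48.6 CPM per kb in bEnd.3. Its make-up differed as well. Mmp14 took on average 58.9% of this sum in UV2 and 25.0% in bEnd.3, and Mmp3 took 26.0% in UV2 and 3.46% in bEnd.3. For Mmp2 the shares were 11.1% in UV2 and 2.74% in bEnd.3, and for Mmp15 they were 0.280% in UV2 and 50.7% in bEnd.3.

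The ADAM genes differed less. Of 33 ADAM genes, 12 had 0 counts in all libraries, 15 were tested, 8 were higher in UV2, 2 were lower and 5 were not called, and the median log2 fold change was 0.51. Beyond 2-fold, 4 were higher and 1 was lower. The share called, 66.7%, was close to the 67.1% over all tested genes, and the share beyond 2-fold was 33.3%, against 19.4%. Adam28 and Adam32 are among those beyond 2-fold and entered the test through UV2 alone, so this share is a description. Adam8 and Adam9 were higher in UV2 and Adam12 was lower, while the main sheddases Adam10 and Adam17 differed little or not at all.

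Adam10 encodes the sheddase that cuts Notch receptors and VE-cadherin (chr9:70678944-70780229). It had 484, 512 and 544 CPM in UV2, against 482, 505 and 507 CPM in bEnd.3. The ranges overlapped and no difference was called (log2 fold change 0.044, 95% interval -0.09 to 0.18, edgeR adjusted p = 0.602). Adam17 encodes the sheddase of TNF and its receptors (chr12:21323509-21373632). It had 201, 199 and 201 CPM in UV2, against 139, 119 and 126 CPM in bEnd.3. The libraries did not overlap, and the gene was 1.57-fold higher in UV2 (log2 fold change 0.65, SE 0.07, edgeR adjusted p = 0.000137). Iah1 has an exon on the opposite strand of Adam17 and had 293, 263 and 336 expected counts in UV2 and 161, 199 and 231 in bEnd.3, far fewer than Adam17 in every library.

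Adam9 encodes meltrin-gamma, a widely expressed sheddase (chr8:24949611-25017040). It had 555, 529 and 600 CPM in UV2, against 197, 159 and 162 CPM in bEnd.3. With means of 561 ± 36.1 CPM in UV2 and 173 ± 21.3 CPM in bEnd.3 (SD, n = 3 each) it was 3.25-fold higher in UV2 (log2 fold change 1.70, SE 0.10, edgeR adjusted p = 5.42e-06). Adam8 is best known from leukocytes and osteoclasts (chr7:139978932-139995207). It had 91.1, 90.4 and 92.7 CPM in UV2, against 9.91, 5.82 and 5.94 CPM in bEnd.3. The UV2 values were almost the same in all 3 libraries, and the gene was 12.7-fold higher (log2 fold change 3.67, SE 0.19, edgeR adjusted p = 2.72e-06). Among the 7 leukocyte markers, Cd68 was higher in UV2 as well, with 285 ± 49.8 CPM in UV2 and 116 ± 37.2 CPM in bEnd.3 (SD, n = 3 each, edgeR adjusted p = 0.00121). Csf1r was not called, with 39 counts in UV2 and 36 in bEnd.3. Itgam had 19 counts in UV2 and 3 in bEnd.3, Cd79a had 4 in UV2 and 19 in bEnd.3, and Ptprc had at most 1 count in a line. The part of these markers in the Adam8 difference was not tested.

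Adam12, or meltrin-alpha, is known from muscle and bone development and from growth factor shedding (chr7:133883199-134225097). It had 48.8, 33.0 and 30.8 CPM in UV2, against 197, 217 and 262 CPM in bEnd.3. It was the ADAM gene with the lowest log2 fold change, 6.00-fold lower in UV2 (-2.59, SE 0.19, edgeR adjusted p = 1.58e-05). Adam15 encodes metargidin, an ADAM known from endothelial cells (chr3:89339640-89350028). It had 933, 1100.1 and 1103 CPM in UV2, against 712, 686 and 729 CPM in bEnd.3, and was 1.47-fold higher (log2 fold change 0.56, SE 0.09, edgeR adjusted p = 0.000678). Per kb of exon it was the most abundant ADAM transcript in both lines, with 46.4% of the family's sum in UV2 and 47.4% in bEnd.3. Adam19, or meltrin-beta, a neuregulin sheddase (chr11:46054502-46147347), had 450.1, 481 and 481 CPM in UV2, against 314, 331 and 346 CPM in bEnd.3. Here too the libraries did not overlap, and the difference was 1.42-fold (log2 fold change 0.51, SE 0.07, edgeR adjusted p = 0.000352).

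Adam11, which has no protease activity and is known from neurons (chr11:102761413-102780263), was low, with 0.549, 0.388 and 0.308 CPM in UV2, against 0.628, 1.47 and 1.36 CPM in bEnd.3. It was called lower in UV2 (log2 fold change -1.48, SE 0.41, edgeR adjusted p = 0.0127). Adam28, Adam3 and Adam32, which are known mainly from lymphocytes or from sperm, were called higher in UV2 with means of 0.633 to 0.746 CPM there and 0.0534 to 0.126 CPM in bEnd.3. These genes entered the test through UV2 alone, and Adam11 through bEnd.3 alone, so their calls are a description. Adam1a, Adam22, Adam4 and Adam5 were tested and not called. Without UV2 replicate 1, Adam5 was called lower (log2 fold change -1.87, edgeR adjusted p = 0.0335). Exons of Mapkapk5 overlap those of Adam1a on the same strand, so reads of these genes may be mixed. The 6 genes detected but not tested (Adam18, Adam1b, Adam2, Adam21, Adam33 and Adam7) had at most 20 counts in a line. The family summed to 709, 766 and 793 CPM per kb in UV2, against 503, 490 and 516 CPM per kb in bEnd.3. Within it, Adam9 took 18.4% in UV2 and 8.50% in bEnd.3, Adam10 took 14.8% in UV2 and 21.6% in bEnd.3, and Adam12 took 0.655% in UV2 and 5.83% in bEnd.3.

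Of the 19 ADAMTS genes 11 were tested, with 4 higher in UV2, 4 lower, 3 not called and a median log2 fold change of 0.22. Beyond 2-fold, Adamts12 alone was higher and Adamts5 alone was lower. The shares called (72.7%) and beyond 2-fold (18.2%) were close to those over all tested genes (67.1% and 19.4%). The aggrecanases, which cut the core proteins of large proteoglycans such as versican and aggrecan, did not move together: Adamts1 and Adamts5 were lower, Adamts9 was higher and Adamts4 was not called.

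Adamts1 encodes a versican-cutting protease that also restrains angiogenesis (chr16:85793827-85803113). It had 849, 1096 and 1050.1 CPM in UV2, against 2169, 1440.5 and 1297 CPM in bEnd.3. The lines did not overlap, but bEnd.3 replicate 1 was well above the other libraries of its line. The gene was 1.64-fold lower in UV2 (log2 fold change -0.71, SE 0.20, edgeR adjusted p = 0.0128), and without UV2 replicate 1 it was no longer called (-0.60, adjusted p = 0.0543). Adamts5 (chr16:85858157-85901125), which lies next to Adamts1, had 103, 157 and 151 CPM in UV2, against 476, 484 and 485 CPM in bEnd.3. It was 3.51-fold lower in UV2 (log2 fold change -1.81, SE 0.15, edgeR adjusted p = 2.85e-05). Adamts4 (chr1:171250129-171262267) had 315, 429 and 433 CPM in UV2, against 413, 261 and 238 CPM in bEnd.3. The ranges overlapped through bEnd.3 replicate 1, and no difference was called (log2 fold change 0.37, 95% interval -0.06 to 0.80, edgeR adjusted p = 0.169). Without that library it was called higher (0.65, adjusted p = 0.00549). Adamts9 (chr6:92772699-92944450) had 290 CPM, 321 CPM and 384 CPM in UV2, against 256, 172 and 166 CPM in bEnd.3. It was 1.68-fold higher in UV2 without overlap (log2 fold change 0.75, SE 0.18, edgeR adjusted p = 0.00705).

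Adamts12, a protease of the same branch as Adamts7 that cuts cartilage oligomeric matrix protein, was the ADAMTS gene with the highest log2 fold change (chr15:11064773-11349232). It had 159, 144 and 127 CPM in UV2, against 16.5, 20.1 and 16.6 CPM in bEnd.3. With 143 ± 15.98 CPM in UV2 and 17.7 ± 2.05 CPM in bEnd.3 (SD, n = 3 each) it was 8.08-fold higher (SE of the log2 fold change 0.12, edgeR adjusted p = 6.45e-07). Adamts7 itself (chr9:90162904-90200102) had 28.5, 28.7 and 18.2 CPM in UV2, against 18.6, 20.8 and 25.2 CPM in bEnd.3. It overlapped between the lines and was not called (log2 fold change 0.22, SE 0.19, edgeR adjusted p = 0.348), except without UV2 replicate 3 (0.41, adjusted p = 0.0350), and exons of Tbc1d2b lie on its opposite strand. Adamts10, a protein of the fibrillin microfibrils (chr17:33523646-33553782), had 63.0, 52.3 and 60.7 CPM in UV2, against 78.8, 92.5 and 118 CPM in bEnd.3. Its libraries did not overlap and it was 1.65-fold lower in UV2 (log2 fold change -0.72, SE 0.15, edgeR adjusted p = 0.00312).

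Adamts16, Adamts17 and Adamts18 were low in both lines. Adamts18 (chr8:113697123-113849343) had 3.25, 2.28 and 2.54 CPM in UV2, against 0.404, 1.22 and 1.19 CPM in bEnd.3, 2.82-fold higher (SE of the log2 fold change 0.37, edgeR adjusted p = 0.00747). For Adamts17 (chr7:66839699-67153171) the values were 2.54, 2.33 and 4.32 CPM in UV2 and 0.538, 1.79 and 1.29 CPM in bEnd.3. The log2 fold change was 1.33 (SE 0.42, edgeR adjusted p = 0.0220), and the call was lost without UV2 replicate 3 (1.00, adjusted p = 0.0746) or without bEnd.3 replicate 3 (1.38, adjusted p = 0.0529). Adamts16 (chr13:70727798-70841845) had 0.380, 0.194 and 0.501 CPM in UV2, against 0.314, 3.13 and 2.38 CPM in bEnd.3, so that bEnd.3 replicate 1 lay among the UV2 libraries. It was called lower (log2 fold change -2.41, SE 0.76, edgeR adjusted p = 0.0228). The call was lost with limma-voom (-1.99, adjusted p = 0.109) and without UV2 replicate 1 (-2.42, adjusted p = 0.0635), UV2 replicate 2 (-2.13, 0.0774), bEnd.3 replicate 2 (-1.90, 0.0763) or bEnd.3 replicate 3 (-2.24, 0.0614). Adamts6 was not called at 3.34 CPM in UV2 and 3.69 CPM in bEnd.3. Adamts13, the protease that trims von Willebrand factor, had 7 counts in UV2 and 0 in bEnd.3. Adamts2 and Adamts14, which remove the amino-terminal propeptide of procollagens, had 7 and 11 counts in UV2 and 0 in bEnd.3. Adamts15 and Adamts8 had at most 1 count in a line, and Adamts3, Adamts19 and Adamts20 rounded to 0. The family's sum was 321, 400 and 397 CPM per kb in UV2, against 625, 438 and 408 CPM per kb in bEnd.3, and Adamts1 was its largest part with 54.8% in UV2 and 67.8% in bEnd.3.

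Of the 5 ADAMTS-like genes 4 were tested, 2 higher and 2 lower in UV2, and the lower ones were beyond 2-fold. Over all tested genes, 67.1% were called and 19.4% were beyond 2-fold. Adamtsl1 entered the test through bEnd.3 alone and Adamtsl3 through UV2 alone, so these counts are a description. Adamtsl1 encodes punctin, a secreted matrix protein without protease activity (chr4:85513852-86428390). It was nearly absent from UV2, with 0, 1 and 0 counts, against 384, 730 and 976 counts in bEnd.3, where its level was 17.2, 29.7 and 33.1 CPM. The ratio of bEnd.3 over UV2 was 1923 with an exact 95% counting interval of 345 to 76002, and the edgeR adjusted p was 3.01e-06. Adamtsl5, a fibrillin-binding member (chr10:80339793-80349030), had 2.28, 2.42 and 2.35 CPM in UV2, against 12.6, 13.6 and 14.5 CPM in bEnd.3. It was 5.76-fold lower in UV2 with little spread in either line (log2 fold change -2.53, SE 0.12, edgeR adjusted p = 1.96e-06). Adamtsl4, which is needed for the fibrillin fibres that hold the eye lens (chr3:95676201-95687927), had 4.73, 5.57 and 3.78 CPM in UV2, against 2.06, 1.67 and 2.14 CPM in bEnd.3, 2.39-fold higher (log2 fold change 1.25, SE 0.21, edgeR adjusted p = 0.000975). Adamtsl3 was called higher at 0.758 CPM in UV2 and 0.146 CPM in bEnd.3, and Adamtsl2, with 1 count in UV2 and 34 in bEnd.3, was not tested.

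Timp1 and Timp2 were higher in UV2, Timp3 was not called and Timp4 was too low to test. The share called among the 3 tested TIMP genes, 66.7%, was close to the 67.1% over all tested genes. Timp1 and Timp2 were also beyond 2-fold, a share of 66.7%, against 19.4% over all tested genes. Timp2 encodes the inhibitor that also forms a bridge between MT1-MMP and the MMP2 proenzyme during its activation (chr11:118301061-118355411). It had 1604, 1707 and 2117 CPM in UV2, against 425, 567 and 538 CPM in bEnd.3. The libraries were clearly apart, and the gene was 3.55-fold higher in UV2 (log2 fold change 1.83, SE 0.15, edgeR adjusted p = 2.28e-05). Timp2 was thus higher in the same line as Mmp14 and Mmp2. Timp1, a soluble inhibitor of most secreted MMPs (chrX:20870166-20874737), had 67.3, 81.1 and 78.0 CPM in UV2, against 21.7, 16.6 and 13.5 CPM in bEnd.3. It was 4.39-fold higher in UV2 (log2 fold change 2.13, SE 0.17, edgeR adjusted p = 2.16e-05). Timp1 lies within Syn1 on the opposite strand, a gene with at most 17 counts in any library. Over the 401 tested genes of the X chromosome the median log2 fold change was 0.07.

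Timp3, the matrix-bound inhibitor that also blocks ADAM17 and the aggrecanases, showed no call (chr10:86300412-86349505). It had 582, 459 and 548 CPM in UV2, against 350.1, 610 and 592 CPM in bEnd.3. The ranges overlapped, with bEnd.3 replicate 1 below all other libraries (log2 fold change 0.034, 95% interval -0.37 to 0.43, edgeR adjusted p = 0.890). The sign of this small difference turned without bEnd.3 replicate 1 (-0.18). Timp4 (chr6:115244444-115252205) had 5 counts in each line. Syn3 lies opposite Timp3 and Syn2 opposite Timp4, with 88, 84 and 96 counts of Syn3 in UV2 and 89, 125 and 152 in bEnd.3, and 150, 120 and 265 counts of Syn2 in UV2 and 404, 497 and 683 in bEnd.3. Per kb of exon, Timp2 was the most abundant inhibitor in both lines, with 71.0% of the TIMP sum in UV2 and 51.8% in bEnd.3, and Timp3 was the next with 16.5% in UV2 and 40.6% in bEnd.3. The TIMP sum was 631, 649 and 775 CPM per kb in UV2, against 213, 301 and 286 CPM per kb in bEnd.3. The ratio of the TIMP sum to the MMP sum was 2.39, 1.90 and 2.02 in the UV2 libraries, against 3.69, 5.98 and 5.88 in the bEnd.3 libraries. TIMP transcripts thus exceeded MMP transcripts per length in all 6 libraries, by less in each UV2 library than in any bEnd.3 library. RNA levels say nothing of how much enzyme is active.

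**Figure D4:**
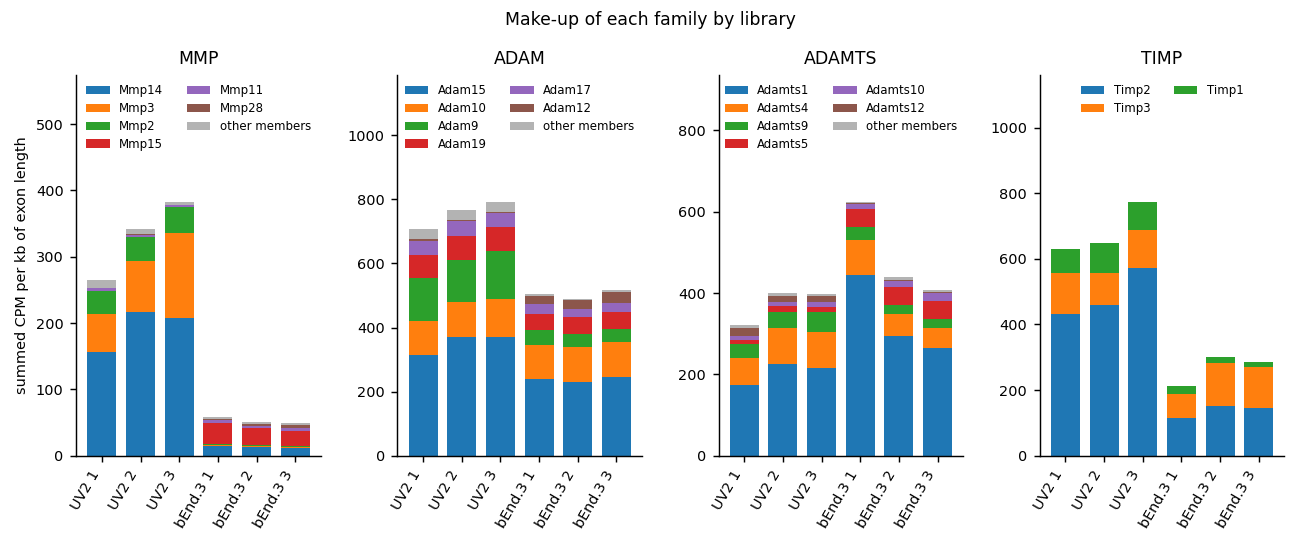
Summed CPM per kb of exon in each library (3 UV2 bars, then 3 bEnd.3 bars) for the MMP, ADAM, ADAMTS and TIMP families, with colours for the main genes and grey for the rest; each panel has its own vertical scale. The MMP bars are mostly Mmp14, Mmp3 and Mmp2 in UV2 and mostly Mmp15 and Mmp14 in bEnd.3, while Adam15, Adamts1 and Timp2 are the largest part of their families in every library.

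Of 25 genes that process, traffic or bind these enzymes 21 were tested, of which 9 were higher in UV2, 5 were lower and 7 were not called, where 33.9% of all tested genes were higher and 33.3% lower. The share called was close to the 67.1% over all genes, and the median log2 fold change was 0.12, against -0.01 over all tested genes. The called gene with the highest log2 fold change was Lrp1, an endocytic receptor that removes MMPs, ADAMTS enzymes and TIMPs from outside the cell. It had 240, 460 and 269 CPM in UV2, against 20.8, 11.7 and 10.8 CPM in bEnd.3 (log2 fold change 4.49, SE 0.35, edgeR adjusted p = 2.05e-05). The lowest was Papln, which encodes papilin, a matrix protein related to the ADAMTS-like proteins. It had 0.169, 0.0969 and 0 CPM in UV2, against 5.29, 15.1 and 13.7 CPM in bEnd.3 (log2 fold change -6.97, SE 0.69, edgeR adjusted p = 6.91e-05). Its UV2 libraries held 4, 2 and 0 counts, and the value was -7.87 without UV2 replicate 1 and -6.34 without UV2 replicate 3. Papln entered the test through bEnd.3 alone, so its call is a description. Furin, the convertase that removes the propeptide of MT1-MMP and most ADAMs, is named after its values were seen. It averaged 940 ± 152 CPM in UV2 and 225 ± 33.0 CPM in bEnd.3 (SD, n = 3 each), 4.17-fold higher in UV2 (log2 fold change 2.06, SE 0.15, edgeR adjusted p = 1.53e-05). The other convertases of the list did not follow Furin. Pcsk6 was lower in UV2, with 119 ± 32.8 CPM in UV2 and 399 ± 152 CPM in bEnd.3 (log2 fold change -1.74, SE 0.32, edgeR adjusted p = 0.00166). Pcsk7 was not called (log2 fold change -0.11), and Pcsk5, with 0 counts in UV2 and 22 in bEnd.3, was not tested.

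Of 31 genes for membrane proteins that ADAM10 or ADAM17 are known to shed, 28 were tested, with 16 higher in UV2, 4 lower and 8 not called, again beside 33.9% higher and 33.3% lower over all tested genes. The median log2 fold change was 0.56, against -0.01 over all tested genes. Tnfrsf1b, a TNF receptor shed by ADAM17, stood at one end. It had 124, 115 and 119 CPM in UV2, and 2 counts over the 3 bEnd.3 libraries. The ratio was 4559 with an exact 95% counting interval of 1262 to 37653 (edgeR adjusted p = 2.63e-08). Cdh2, which encodes N-cadherin, a substrate of ADAM10, stood at the other, with 3 counts over the UV2 libraries, against 22.5, 20.1 and 18.7 CPM in bEnd.3. Its ratio of bEnd.3 over UV2 was 475 with an exact 95% counting interval of 162 to 2305 (edgeR adjusted p = 1.37e-06). The fitted log2 fold change of Cdh2 depended on those 3 counts, all in UV2 replicate 3, and was -11.94 without it, against -8.74 with all libraries. Tnfrsf1b reached the filter level of about 0.419 CPM in UV2 alone and Cdh2 in bEnd.3 alone. Both entered the test through 1 line, so their calls are a description.

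Of 21 genes for matrix and plasma proteins cut by MMP or ADAMTS enzymes, 13 were tested, with 7 higher in UV2, 4 lower and 2 not called, beside the same shares of 33.9% and 33.3%. Their median log2 fold change was 0.56, against -0.01 over all tested genes. Col3a1, a fibrillar collagen and one of the fibroblast markers, had 50.8, 26.2 and 19.2 CPM in UV2, against 1.61, 0.977 and 0.272 CPM in bEnd.3 (log2 fold change 5.13, SE 0.56, edgeR adjusted p = 0.000123, and 5.73 without bEnd.3 replicate 1). Eln, which encodes elastin, a substrate of MMP2, MMP9 and MMP12, had 0.507, 0.485 and 0.540 CPM in UV2, against 24.0, 97.2 and 95.3 CPM in bEnd.3 (log2 fold change -7.13, SE 0.69, edgeR adjusted p = 6.16e-05). For both genes the values in UV2 and bEnd.3 did not overlap. Col3a1 reached the filter level of about 0.419 CPM in all libraries of UV2 only, so its call is a description.

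**Figure D5:**
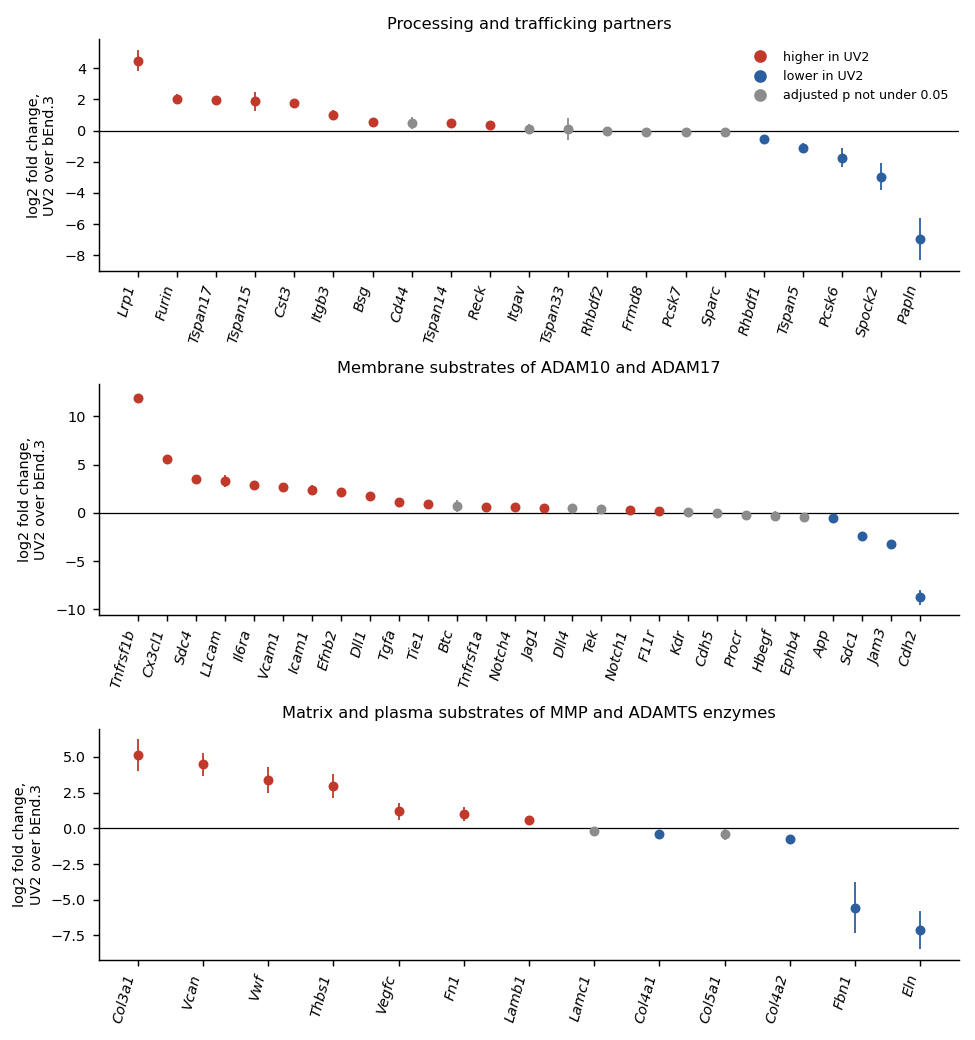
Log2 fold change of UV2 over bEnd.3 (vertical axis, each panel with its own scale) for the tested genes of the partner list, the ADAM10 and ADAM17 substrate list and the matrix substrate list, with bars for the 95% confidence interval, red for higher, blue for lower and grey for not called. Each list holds genes in both directions, from Lrp1 at 4.49 to Papln at -6.97 among the partners and from Col3a1 at 5.13 to Eln at -7.13 among the matrix substrates; the fitted values of Tnfrsf1b and Cdh2 rest on 2 and 3 counts in a line.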

How the data were processed

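The file the authors deposited holds expected counts of each gene, without normalization, for 6 bulk libraries. Per the submitters' processing notes, Trim Galore, STAR, RSEM and the build mm10 were used; for versions, annotation and strand setting the sources used here give nothing. Per the labels' protocols, libraries came from a stranded mRNA kit. Expected counts share reads among similar genes (13 of the 84 genes had values that were not whole), and BALB/c reads differ from a C57BL/6 reference at strain variants.

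Samples were grouped by labelled line. Expected counts were rounded and fitted with edgeR 4.0.16 (R 4.3.3, limma 3.58.1): filterByExpr, TMM scaling, the quasi-likelihood test, glmTreat against a 2-fold change, and Benjamini-Hochberg adjustment over 12720 genes. Standard errors were the log2 fold change over the square root of F. The 95% intervals, in text and figures, were 1.96 SE each way, a normal approximation that is too narrow for so few libraries. The common biological coefficient of variation was 0.124. CPM used TMM-scaled totals, CPM per kb the exon length of GENCODE, and gene positions RefSeq on mm10. At these depths 3 counts are 0.102 to 0.145 CPM in a library, and ratios against 1 to 3 counts have exact binomial intervals that cover counting error only. The steps were tested on simulated data.

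Named genes were all TIMPs, called members that averaged 1 CPM or more in the line with more, uncalled members that averaged 10 CPM or more there, and the extreme called genes of each list. The members and lists were chosen with earlier results of these data known. The neighbours of the chromosome 9 run and the promoter letters were chosen after values were seen. Same-numbered libraries (numbers from the titles) deviated together, with correlations of 0.126, 0.232 and 0.279, against at most 0.084 for other pairs. Alternatives were other size factors, total counts, other filters, DESeq2 1.42.0, limma-voom, a replicate block and leaving out each library. Figures used matplotlib 3.10.9.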

Additional observations from a re-analysis of the deposited data

How the results depend on the processing

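Of the 32 tested named members, 400 of 414 log2 fold changes under the 13 alternatives kept their direction and their side of the threshold. So did all 117 of 9 other genes (Lrp1, Papln, Cdh2, Tnfrsf1b, Col3a1, Eln, Furin, Tmem123 and Pdgfd). Signs turned only for uncalled values near 0: with total counts Adam10 was -0.022 and Timp3 -0.031, and leaving out 1 library put Timp3 between -0.18 and 0.18, negative without bEnd.3 replicate 1 or (-0.025) UV2 replicate 1. With a filter of 1 CPM in 3 libraries, 5 ADAM genes were higher, 1 lower, and 1 ADAMTSL gene higher, because Adam28, Adam3, Adam32, Adam11 and Adamtsl3 were then not tested. Adamts16, called lower in the main test, and the uncalled Adam4 and Adam5 were not tested with this filter either. Leaving out 1 library gave 3 to 5 lower MMP genes, with 5 without UV2 replicate 1, where Mmp11 and Mmp23 were added, and 2 to 4 lower ADAMTS genes, with 2 without UV2 replicate 1, where Adamts1 and Adamts16 were lost; the cause was not tested. Adding the replicate number as a block changed no call of a tested member (Mmp13 had a log2 fold change of 5.93 with the block), and 13 members were higher beyond 2-fold with it. Total counts moved the median log2 fold change of all genes by -0.07. With no filter, which tests 17283 genes, Mmp10, Adamts13 and Adamts14 were also called higher and Mmp23 and Adamtsl2 lower. Genes under 3 counts in a line, such as Mmp9 in bEnd.3 and Adamtsl1 in UV2, are limited by depth: the fitted log2 fold change of Adamtsl1 was -12.39 without UV2 replicate 2, which holds its 1 count.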
